A study of Mus musculus with 30 samples.

Results

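Described here are 10 genes that code for proteins of airway mucus and airway surface defence: Muc5b, Agr2, Spdef, Tff2, Reg3g, Ltf, Bpifa1, Bpifb1, Muc16 and Muc1. They were picked by symbol, and 10 of 10 were found among the 53715 genes of each of the 3 count tables. The study sequenced messenger RNA from lungs and tracheas of mouse embryos with a conditional deletion of Myocd, which encodes myocardin, a coactivator of smooth muscle genes, and its title asks about airway smooth muscle, airway size, tracheal cartilage and epithelial branching. Each of the 30 libraries came from a single lung or trachea. Mutants were labelled Tbx4rtTAi/+; tetOcrei/+; MyocdF/F, so the Cre that deletes Myocd depends on Tbx4, a gene of lung and tracheal mesenchyme, and not of the epithelium that makes most of these proteins. Controls carried the same transgenes with 1 floxed allele (MyocdF/+), except E13.5 control replicate 1, which was MyocdF/F without the transgenes. All groups therefore carried at least 1 floxed Myocd allele, and in every group but that single library the transactivator and the Cre were present too. There were 5 control and 5 mutant lungs at E13.5, taken as the lobes of both sides, 4 control and 6 mutant lungs at E18.5, taken as right lobes only, and 4 control and 6 mutant tracheas of the same age. The labels used here do not give the time of doxycycline treatment.

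Airway mucus is a gel built from polymeric mucins that secretory cells of the surface epithelium and submucosal glands release. Muc5b is the gel-forming mucin needed for clearance in mice, Agr2 is an endoplasmic reticulum protein that helps mucins fold, Spdef is a transcription factor of mucous cell fate, and Tff2 is a trefoil peptide secreted with mucus. Reg3g is an antibacterial lectin, Ltf encodes the iron-binding protein lactotransferrin, and Bpifa1 and Bpifb1 are related secreted proteins of the upper airways. Muc16 and Muc1 are mucins that stay anchored in the apical membrane. Some members are not restricted to airway epithelium: Ltf is also stored in neutrophil granules, and Muc16 is also made by mesothelium.

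The members lie on 7 chromosomes, with Bpifa1 and Bpifb1 both on chromosome 2. In GRCm38, Muc5b is at chr7:141839070-141873084 on the plus strand, Agr2 at chr12:35992907-36004087 on the plus strand, Spdef at chr17:27714352-27728951 on the minus strand and Tff2 at chr17:31141049-31144282 on the minus strand. Reg3g is at chr6:78466269-78468872 on the minus strand, Ltf at chr9:111019271-111042767 on the plus strand, Bpifa1 at chr2:154142880-154149219 on the plus strand and Bpifb1 at chr2:154190818-154220369 on the plus strand. Muc16 is at chr9:18495455-18674530 on the minus strand and Muc1 at chr3:89229057-89233381 on the plus strand. All 10 are annotated as protein coding, and none shares exon sequence with another gene.

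Promoters of 8 of the 10 members (9 start sites) were in a RefSeq table of GRCm38.p6 promoters, each 300 bases long with 250 bases before the start site and 50 after it. The sequences of 3 are shown because they hold the one motif that more than a single member had, TATAAA, and because they span the tissue patterns described further on: Reg3g and Bpifa1 were far higher in trachea, and Muc1 was lower there. Each is the 250 bases before the start site, 5′ to 3′ on the strand of the gene, in lower case, with the matched motifs in capitals: Bpifa1 from chr2:154142630-154142879 (plus strand), Reg3g from chr6:78468875-78469124 (minus strand) and Muc1 from chr3:89228806-89229055 (plus strand).
Bpifa1: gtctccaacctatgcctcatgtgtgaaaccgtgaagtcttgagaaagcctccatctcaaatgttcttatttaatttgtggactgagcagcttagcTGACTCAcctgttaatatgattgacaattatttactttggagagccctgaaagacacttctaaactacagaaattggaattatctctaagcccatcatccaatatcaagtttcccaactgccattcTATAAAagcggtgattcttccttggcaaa
Reg3g: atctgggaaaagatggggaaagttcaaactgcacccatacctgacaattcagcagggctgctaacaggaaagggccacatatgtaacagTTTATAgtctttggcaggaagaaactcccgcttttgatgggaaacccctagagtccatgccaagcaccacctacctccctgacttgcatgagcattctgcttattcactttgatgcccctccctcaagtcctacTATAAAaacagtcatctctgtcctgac
Muc1: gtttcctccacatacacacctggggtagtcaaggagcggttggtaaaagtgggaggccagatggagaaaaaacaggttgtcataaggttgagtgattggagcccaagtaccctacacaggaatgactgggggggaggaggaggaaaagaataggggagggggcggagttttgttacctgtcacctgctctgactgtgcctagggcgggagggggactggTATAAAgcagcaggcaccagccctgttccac
TATAAA, searched on both strands, began 29 bases before the start site in Bpifa1, 27 before it in Reg3g and 31 before it in Muc1, with a second match on the opposite strand 161 bases before the start of Reg3g. It was present in 3 of the 9 member promoters and in 13.6% of all 32851 promoters of the table. The AP-1 motif TGANTCA was found in the Bpifa1 promoter only, 155 bases before the start site, and is present in 7.81% of promoters. The STAT motif TTCNNNGAA was found at the second Bpifb1 start site only, 146 bases before it, and is present in 8.3% of promoters. The forkhead motif TGTTTAC (3.65% of promoters), the NKX2-1 core CAAGTG (13.6%) and the SPDEF core CCGGAT (6.04%) were in none of the 9 windows.

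Library totals ranged from 11.7 to 32.8 M counts. Trachea control replicate 2 (11.7 M) and trachea mutant replicate 4 (12.4 M) were the shallowest, and the latter had the lowest TMM scaling factor, 0.814. Levels below are counts per M (CPM) on scaled library sizes, and a difference was called where edgeR's quasi-likelihood test with Benjamini-Hochberg adjustment over all genes gave an adjusted p under 0.05. Tissue labels fitted their defining genes: the summed CPM of 10 alveolar type 2 genes was 16878 to 19571 in E18.5 control lungs and 1077 to 1206 in control tracheas, and 12 of 12 cartilage genes were higher in trachea in controls. Counts over the whole Myocd gene overlapped between mutants and controls in each tissue (10.1 to 18.9 CPM in E13.5 controls and 6.64 to 13.1 CPM in E13.5 mutants), and the labels do not say which exons are floxed, so these counts do not check the genotypes. The summed CPM of 12 smooth muscle contractile genes was lower in every mutant than in every control, at 476 to 726 against 1270 to 1704 in trachea, 621 to 971 against 1137 to 1435 in E13.5 lung and 1173 to 1234 against 1267 to 1371 in E18.5 lung. The tissues were bulk samples, in which fewer cells of a type and less RNA per cell cannot be told apart.

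The mucin and its production genes were tracheal genes at E18.5. Muc5b, the gel-forming mucin, was among the genes with the most reads in the trachea. It had 12845, 9813, 13642 and 10138 CPM in the 4 control tracheas. Among all genes there it ranked between 2 and 8 by CPM, and between 25 and 35 per kilobase of counted exons. In the 6 mutant tracheas its level was lowest at 5857, had a median of 7650 and was highest at 14935 CPM. Its ranks there were between 4 and 13 by CPM and between 29 and 62 per kilobase. In the E18.5 lung the same gene had 4.75, 4.26, 2.02 and 3.14 CPM in controls and 0.418 to 7.98 CPM, median 2.48, in mutants. The lowest trachea library was far above the highest lung library, and the tissues did not overlap. In the E13.5 lung no control exceeded 0.14 CPM and no mutant exceeded 0.247 CPM, and 2 of 5 controls had no Muc5b count at all.

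Agr2, the mucin-folding protein, had 1496, 1417, 1363 and 1225 CPM in control tracheas and 1182 to 1989 CPM, median 1625, in mutant tracheas. In E18.5 lungs it had 1.25, 0.899, 1.41 and 0.516 CPM in controls and 0.611 to 1.41 CPM, median 1.27, in mutants. Its coefficient of variation over tracheas was 8.3% in the 4 controls and 18.6% in the 6 mutants. Ltf had 6.19% and 18.3%, and Muc1 8.31% and 10.8%, in the same groups. At E13.5 a single Agr2 read was counted over the 5 control lungs and a single read over the 5 mutant lungs.

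Spdef, the transcription factor, had a lower level and was not silent in the early lung. It had 119, 122.8, 77.6 and 83.3 CPM in control tracheas, and 67.0 to 127 CPM, median 86.1, in mutant tracheas. In E18.5 lungs it had 1.80, 1.44, 1.37 and 1.11 CPM in controls and 1.01 to 1.79 CPM, median 1.14, in mutants. In E13.5 lungs it had 1.09, 1.01, 0.705, 0.647 and 0.837 CPM in controls and 0.984, 1.03, 0.845, 0.57 and 1.07 CPM in mutants. Spdef was therefore detected in all 30 libraries, while Muc5b and Agr2 were at or near 0 in the E13.5 lung.

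Tff2, the trefoil peptide, had 53.9, 61.3, 93.8 and 84.2 CPM in control tracheas. In mutant tracheas it had 38.3, 38.0, 36.6, 395, 86.1 and 27.3 CPM in replicate order, so that 4 of 6 mutants were below every control, 1 was inside the control range and replicate 4 was far above it. In E18.5 lungs only 5 reads were counted over the 4 controls and 4 reads over the 6 mutants, and at E13.5 there was 1 read in each genotype.

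**Figure D1:**
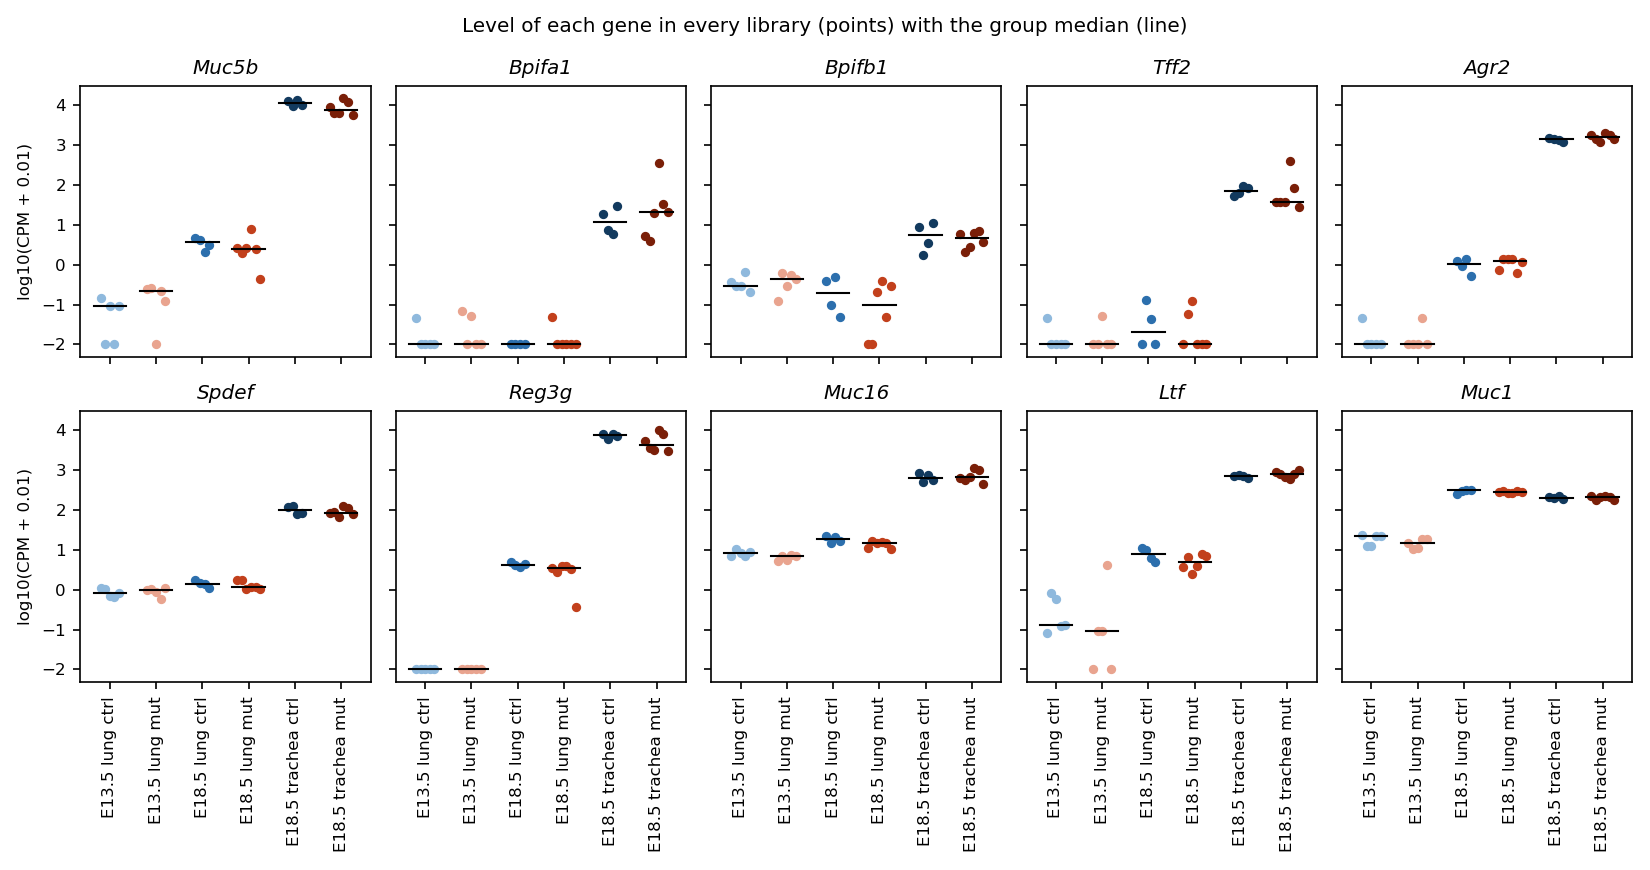
Level of each of the 10 genes in every library, as log10(CPM + 0.01), by group; each point is 1 library and each bar is the group median. 9 of the 10 genes have their highest points in the trachea groups, whereas Muc1 has them in the E18.5 lung, between 255 and 325 CPM in controls.

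Among the secreted defence proteins, Reg3g followed the mucin closely. The lectin had 8133, 5879.9, 8164 and 7149 CPM in control tracheas, where it ranked between 8 and 11 among all genes by CPM. In mutant tracheas it had 5467, 3498, 3241, 10286, 8006 and 3056 CPM. In E18.5 lungs it had 4.92, 4.197, 3.67 and 4.33 CPM in controls and 3.50, 2.71, 4.04, 4.02, 3.36 and 0.353 CPM in mutants. The other 9 lungs lay between 2.71 and 4.92 CPM, and mutant replicate 6 was far below them. No Reg3g read was counted in any of the 10 E13.5 lungs.

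Ltf, which encodes lactotransferrin, had 726, 760.4, 715 and 654 CPM in control tracheas and 592 to 987 CPM, median 787, in mutant tracheas. In E18.5 lungs it had 11.4, 9.65, 6.25 and 5.0003 CPM in controls and 2.41 to 8.05 CPM, median 5.15, in mutants. In E13.5 lungs it had 0.0701, 0.826, 0.581, 0.114 and 0.12 CPM in controls and 0, 0.0823, 0.0805, 4.06 and 0 CPM in mutants, so mutant replicate 4 stood apart there. Because neutrophils also make this protein, the other granule genes are given beside it. In the trachea several of them were low, with Camp at most 1.81 CPM, Ngp at most 5.798, S100a9 at most 5.73, Mpo at most 1.39 and Elane at most 0.595 CPM in any library, while Ltf was never below 592 CPM. Of that list, 2 more genes were abundant in trachea, Cd177 at 52.8 to 119 CPM and Lcn2 at 34.3 to 67.6 CPM. With these included, the 13 granule genes other than Ltf summed to 137 to 181 CPM in control tracheas and 86.5 to 121 CPM in control lungs at E18.5. In the E18.5 lung S100a9 had 13.6 to 28.6 CPM in controls and 7.52 to 18.4 CPM in mutants, above the CPM of Ltf in each of the 10 libraries. E13.5 mutant replicate 4 had 12.9 CPM of S100a9 and 9.98 CPM of S100a8, the highest of the E13.5 lungs. The part of neutrophil RNA in the Ltf levels of either tissue was not tested.

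**Figure D2:**
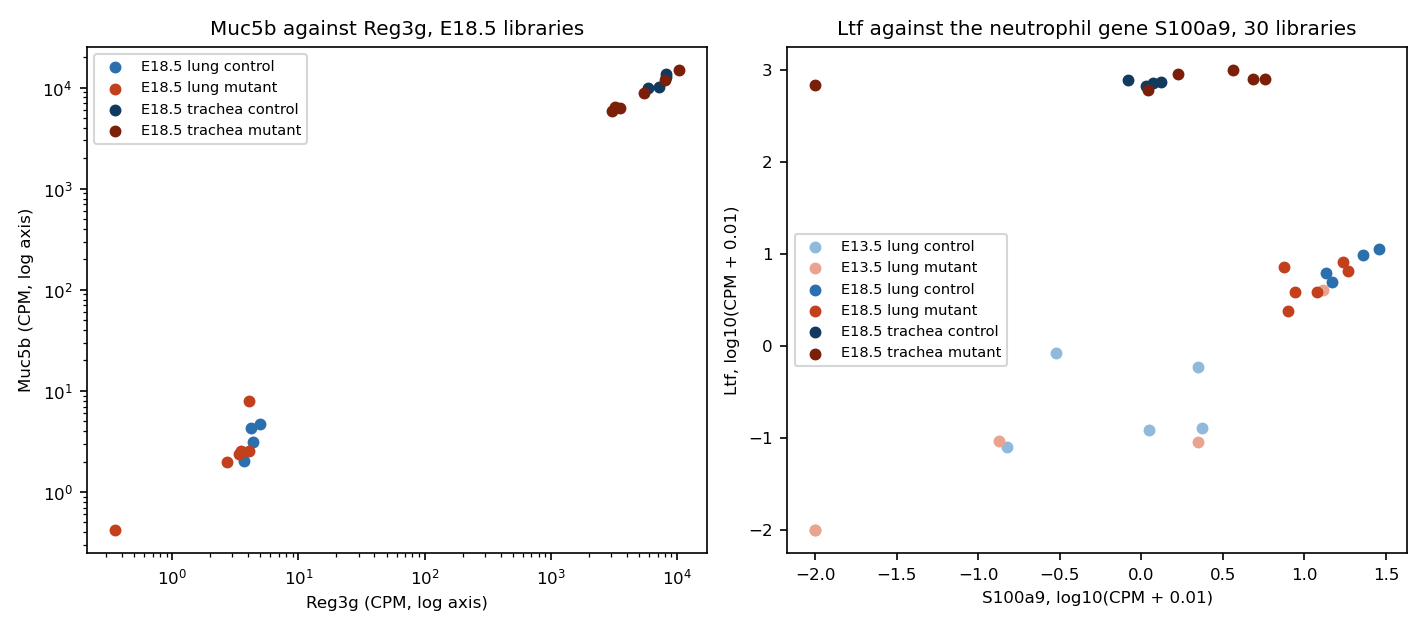
Left, Muc5b against Reg3g in the 20 E18.5 libraries (CPM, both axes logarithmic); right, Ltf against the neutrophil gene S100a9 in all 30 libraries, as log10(CPM + 0.01), where 2 E13.5 mutants with no read of either gene share the point at the lower left. The trachea libraries sit at 592 to 987 CPM of Ltf with at most 5.73 CPM of S100a9.

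Bpifa1 and Bpifb1, the related secreted proteins, had low levels in most tracheas. Bpifa1 had 18.6, 7.32, 6.04 and 29.97 CPM in control tracheas and 5.21, 3.87, 19.6, 357, 33.5 and 21.3 CPM in mutant tracheas. Replicate 4 of the mutants therefore had over 10 times the level of any other library. No Bpifa1 read was counted in the 4 control lungs at E18.5, and a single read was counted over the 6 mutants. Bpifb1 had 8.75, 1.71, 3.47 and 11.4 CPM in control tracheas and 2.13 to 6.94 CPM, median 4.85, in mutant tracheas. In the lung Bpifb1 was barely detected: 29 reads were counted over the 4 control and 26 over the 6 mutant lungs at E18.5, and 47 and 50 reads over the 5 control and 5 mutant lungs at E13.5.

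The membrane mucins were detected in every library of the lung. Muc16 had 858, 517, 739.9 and 554 CPM in control tracheas and 448 to 1115 CPM, median 669, in mutant tracheas. In E18.5 lungs it had 22.9, 14.5, 20.6 and 16.4 CPM in controls and 10.98, 17.1, 15.1, 15.4, 14.7 and 10.6 CPM in mutants. In E13.5 lungs it had 6.87, 10.4, 8.59, 7.08 and 8.61 CPM in controls and 5.32, 7.08, 5.72, 7.34 and 7.16 CPM in mutants, lower on the whole and overlapping. Muc1 was the only member whose lung level was above its tracheal level. It had 255, 297, 322 and 325 CPM in control lungs at E18.5 and 262 to 306 CPM, median 284, in mutants. In tracheas it had 208, 202, 226 and 185 CPM in controls and 174 to 227 CPM, median 211, in mutants. In E13.5 lungs Muc1 had 23.7, 12.4, 12.8, 22.2 and 22.7 CPM in controls and 14.6, 10.7, 11.2, 18.49 and 18.3 CPM in mutants, already the most abundant of the 10 genes at that stage.

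Levels of different genes were ordered per length, as CPM per kilobase of counted exons. In control tracheas (n = 4, mean ± SD) Reg3g was highest with 3468 ± 509 CPM per kb, followed by Agr2 with 1065 ± 88.4 and Muc5b with 776 ± 128. Ltf had 207 ± 12.8, Tff2 126 ± 32.2, Muc1 87.6 ± 7.28, Spdef 46.0 ± 10.7 and Muc16 25.3 ± 6.08 CPM per kb. Bpifa1 had 10.02 ± 7.24 and Bpifb1 1.75 ± 1.25 CPM per kb. Of the 9 pairs of neighbours in this order, only Tff2 (92.4 to 161) and Muc1 (78.9 to 96.5) overlapped between libraries. Muc5b, first by CPM, was thus behind Reg3g and Agr2 per length. In mutant tracheas (n = 6) the first 3 places were the same, with Reg3g at 2645 ± 1407, Agr2 at 1246 ± 232 and Muc5b at 604 ± 246 CPM per kb. The 10 genes together took 1.94 to 2.47% of all counts in control tracheas and 1.22 to 2.44% in mutant tracheas, 0.0306 to 0.0365% in control lungs at E18.5 and 0.00237 to 0.00324% in control lungs at E13.5.

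To ask where along the airways these genes were expressed, trachea was compared with lung at E18.5. In controls 9 of 10 members were higher in trachea and Muc1 was lower, where 24.7% of all 17553 genes tested were called higher and 27.7% lower. In mutants, whose libraries the control comparison does not use, again 9 were higher and Muc1 lower, beside 31.2% of all genes called higher and 29.2% lower. The tissues did not overlap for any of the 10 members in either genotype, nor for 52.3% of all genes tested in controls and 43.3% in mutants. For the scale of the differences, 246 genes (1.40%) were higher in control trachea by more than 5 and 24 genes (0.137%) by more than 10 on the log2 scale. Bpifa1, Bpifb1 and Tff2 passed the filter on low counts through their trachea levels alone, as did Reg3g in mutants, where 5 of 6 lungs were over the minimum; such a gene had to differ, so these counts and medians are descriptions. The median log2 difference of the members was 8.41 (7.94 with Bpifa1 at its lower bound) in controls and 8.93 in mutants, beside -0.05 and 0.04 over all genes.

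Among the mucus genes, Muc5b was higher in control trachea by 11.66 on the log2 scale (SE 0.307, edgeR adjusted p = 4.05e-10), a fold of 2020 to 5163 (95% interval), and by 11.63 (SE 0.730, adjusted p = 3.57e-08) in mutants, or 12.24 without lung mutant replicate 4. Agr2 was higher by 10.37 (SE 0.241, adjusted p = 1.90e-10) in controls and 10.57 (SE 0.239) in mutants. Tff2 was higher by 10.58 (SE 0.408), a value that rests on 5 lung reads: the ratio of pooled counts was 1758 with a 95% counting interval of 753 to 5417, and without lung control replicate 2 the difference was 12.05. In mutants the Tff2 ratio was 2759 (1077 to 10128.5) on 4 lung reads, and the log2 difference of 11.82 became 13.08 without lung mutant replicate 3 and 10.59 without trachea mutant replicate 4. Spdef, the transcription factor, had a gap of 6.12 (SE 0.231, adjusted p = 4.02e-09) in controls and 6.25 (SE 0.212) in mutants.

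Of the defence proteins, Reg3g was higher in trachea by 10.73 on the log2 scale (SE 0.170, adjusted p = 3.23e-11 by edgeR) in controls and by 10.95 (SE 0.671) in mutants. Ltf was higher by 6.45 (SE 0.253, adjusted p = 5.19e-09) in controls and 7.29 (SE 0.287) in mutants. Bpifb1 was higher by 4.63 (SE 0.805) and 4.88 (SE 0.644). Bpifa1 had no lung read in controls, so only a bound can be given: against a floor of 3 counts over the group it was at least 690.1-fold higher in trachea. In mutants a single lung read gave a pooled ratio of 6436 with a counting interval of 1155 to 254256, and the fitted log2 difference of 12.74 became 13.90 without that lung, mutant replicate 1, and 10.59 without trachea mutant replicate 4. The counting intervals cover counting error only.

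The membrane mucins went opposite ways. Muc16 was higher in trachea by 5.15 (SE 0.217, edgeR adjusted p = 8.64e-09) in controls and 5.82 (SE 0.253) in mutants. Mesothelial markers did not go with it: without Muc16 itself their summed CPM was 829 to 1108 in control lungs and 224 to 279 in control tracheas, Msln fell from 629 to 902 CPM in lung to 182 to 234 CPM in trachea, and Upk3b from 103 to 121 CPM to at most 1.71 CPM. Upk1b was an exception among them, with 15.7 to 18.9 CPM in lung and 25.3 to 36.8 CPM in trachea. Muc1 was lower in trachea, with a log2 difference of -0.56 (SE 0.0938, edgeR adjusted p = 0.00044) in controls and -0.40 (SE 0.0851, adjusted p = 0.000567) in mutants, and a pooled ratio of 0.684 in controls. Alveolar type 2 genes, of the main alveolar epithelial cell that makes surfactant, were lower in trachea for 10 of 10 genes in both genotypes, and the 10 club cell genes, of the main secretory cell, summed to 31370 to 34145 CPM in control trachea against 2358 to 2659 CPM in lung. General epithelial genes summed to 2935 to 3314 CPM in trachea and 1933.5 to 2192 CPM in lung. The part of these shifts in cell makeup in the members' differences was not tested.

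**Figure D3:**
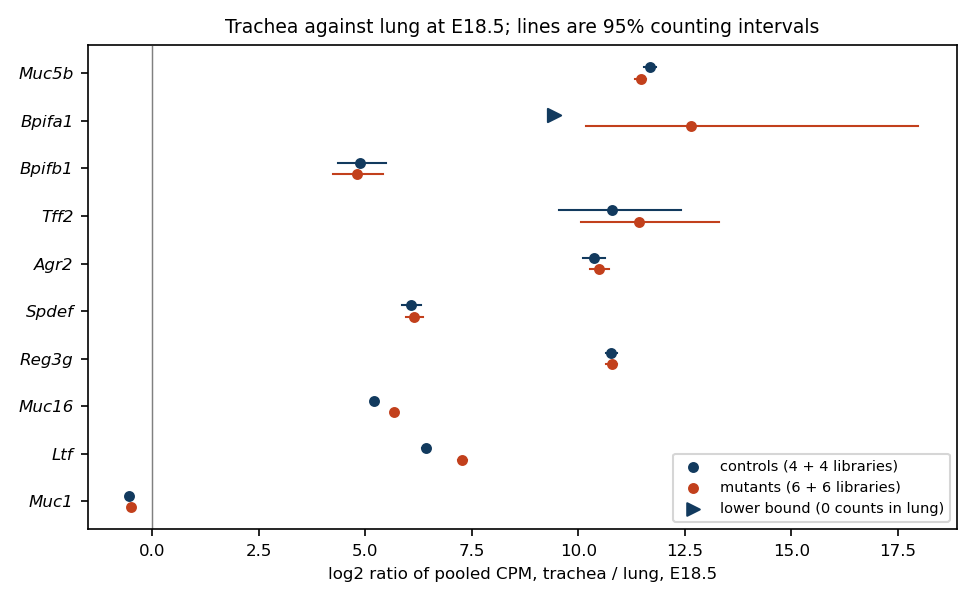
Log2 of the ratio of pooled CPM, trachea over lung at E18.5, for each gene in controls and mutants, with 95% counting intervals (horizontal bars) and an arrow for Bpifa1 in controls, whose value is a lower bound. 9 genes lie to the right of 0, from 4.89 for Bpifb1 to 11.68 for Muc5b in controls, and Muc1 lies to the left of it.

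Most of the members that could be tested were higher in the lung at E18.5 than at E13.5. In controls 7 members could be tested and 7 were higher at E18.5, where 40.4% of all 17580 genes tested were higher. In mutants 6 of the same 7 were higher, beside 37.4% of all genes; DESeq2 called 5, without Ltf. Muc5b, Agr2, Reg3g and Ltf passed the filter through the E18.5 lungs alone, so that the counts and medians here are descriptions. Bpifa1, Bpifb1 and Tff2 had too few reads to be tested. The pooled counts of Bpifb1 had a ratio of E18.5 to E13.5 of 0.694 (counting interval 0.421 to 1.13) in controls and 0.400 (0.239 to 0.655) in mutants, intervals that cover counting error only. The median log2 difference of the tested members was 4.61 in controls and 4.23 in mutants, beside 0.01 and -0.01 over all genes. Stage goes with the lobes taken, right and left at E13.5 and right alone at E18.5. It also goes with separate count tables and with separate numbering of the libraries in the sample titles. None of these can be told apart from stage.

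Muc1, the membrane mucin, rose by 4.06 on the log2 scale in controls (SE 0.196, edgeR adjusted p = 2.80e-09) and by 4.31 in mutants (SE 0.141). Muc16 rose by 1.22 (SE 0.153, adjusted p = 5.94e-06) and 1.13 (SE 0.1504). Muc5b was higher by 5.83 (SE 0.491) in controls and 4.23 (SE 0.696) in mutants, from 8 and 19 reads in all at E13.5. Reg3g, with no read at E13.5, was at least 188-fold higher in controls and at least 118-fold higher in mutants, against a floor of 3 counts over the group. Agr2, with 1 read per genotype at E13.5, had pooled ratios of 136 (counting interval 24.0 to 5420) in controls and 134 (23.7 to 5318) in mutants, and its fitted log2 differences of 6.46 and 6.44 became 7.85 and 7.80 without the lungs that held the read, E13.5 control replicate 1 and mutant replicate 4. The stages did not overlap for these 5 genes in either genotype, nor for 72.7% of all genes tested in controls and 61.3% in mutants.

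Spdef rose by 0.80 (SE 0.244, edgeR adjusted p = 0.00852) in controls, whereas in mutants its difference of 0.57 (SE 0.312, adjusted p = 0.108) was not called. Whether the stage difference of Spdef differs between genotypes was not tested. Ltf was higher by 4.61 (SE 0.497) in controls, or 5.24 without E13.5 control replicate 2. As Ltf passed the filter through the E18.5 lungs alone, its p-values and calls between the stages are descriptions. In mutants Ltf rose by 2.61 (SE 0.996, edgeR adjusted p = 0.0322), with overlap between the stages because of E13.5 replicate 4. Without that library its difference was 6.79, and with the replicate number as a block it was 4.25. Leaving out any of E13.5 mutant replicates 1, 2, 3 and 5 instead ended the call, with differences of 2.26 to 2.32. So did DESeq2 (2.70, adjusted p = 0.0695) and leaving out the filter (2.59, edgeR adjusted p = 0.0837). The neutrophil granule genes other than Ltf also had higher sums at E18.5, 86.5 to 121 CPM against 2.28 to 10.4 CPM in controls, and their part in the Ltf difference was not tested.

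The study's own contrast, mutant against control, gave no called difference for any member. At E13.5, 3 members were tested and 0 were called, where 0.206% of all 16486 genes were called. In the E18.5 lung 7 were tested and 0 called, beside 0.584% of 17467 genes, and in the trachea 10 were tested and 0 called, beside 0.071% of 18315 genes. DESeq2 called 0 members in each of the 3 comparisons, and gave no adjusted p for Bpifa1 and Tff2 in trachea. At an unadjusted p under 0.05, edgeR had 1 member at E13.5 and 1 in the E18.5 lung, Muc16 in both, and 0 in the trachea, where 3.57%, 9.41% and 6.75% of all genes passed that mark. Mutant and control libraries overlapped for every member in each of the 3 comparisons, where 1.01%, 2.39% and 2.34% of all genes tested did not overlap.

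Muc16 had lower mean levels in mutant lungs at both stages, with log2 differences of -0.33 (SE 0.139, edgeR adjusted p = 0.998, 95% interval of the fold 0.645 to 0.981) at E13.5 and -0.40 (SE 0.153, adjusted p = 0.397, 0.604 to 0.946) at E18.5. In the trachea its difference was 0.21 (SE 0.242, adjusted p = 0.861, 0.807 to 1.66). Muc1 had -0.33 (SE 0.216, adjusted p = 0.998) at E13.5, -0.08 (SE 0.0721, adjusted p = 0.803, fold interval 0.854 to 1.05) in the E18.5 lung and 0.02 (SE 0.108, adjusted p = 0.9751, 0.865 to 1.19) in the trachea. The E18.5 intervals of Muc1 were the narrowest of the members, lying between 0.854 and 1.19 as folds.

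In the trachea, where the mucus genes were abundant, Muc5b differed by -0.32 between mutants and controls (SE 0.253, adjusted p = 0.799 by edgeR, fold interval 0.551 to 1.17) and Reg3g by -0.35 (SE 0.327, adjusted p = 0.826, 0.482 to 1.28). Agr2 differed by 0.26 (SE 0.147, adjusted p = 0.742, 0.964 to 1.49), Ltf by 0.17 (SE 0.130, adjusted p = 0.790, 0.932 to 1.37) and Spdef by -0.07 (SE 0.192, adjusted p = 0.948, 0.717 to 1.27). The widest intervals were those of Tff2 with 0.56 (SE 0.863, adjusted p = 0.899, 0.373 to 5.79), Bpifa1 with 2.30 (SE 1.45, adjusted p = 0.773, 0.488 to 49.4) and Bpifb1 with -0.42 (SE 0.474, adjusted p = 0.856, 0.369 to 1.504). Mutant replicate 4 set the direction for Tff2, whose difference without it was -0.67, and most of the size for Bpifa1, whose difference without it was 0.12.

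In the E18.5 lung, where the mucus genes had few counts, Muc5b differed by -0.23 (SE 0.557, edgeR adjusted p = 0.936, fold interval 0.366 to 1.97), Reg3g by -0.51 (SE 0.416, adjusted p = 0.764, 0.380 to 1.30) and Ltf by -0.60 (SE 0.314, adjusted p = 0.596, 0.413 to 1.05). Agr2 differed by 0.13 (SE 0.426, adjusted p = 0.960) and Spdef by -0.13 (SE 0.340, adjusted p = 0.946). In the same mutant lungs 6 of 10 club cell genes (summed level 2358 to 2659 CPM for controls and 1482 to 1893 CPM for mutants) passed the test downwards. So did 8 of 11 ciliated cell genes (276 to 332 and 181 to 232 CPM), where 96 of all 17467 genes did. Of the 7 members tested, 6 had a difference below 0, as had 48.7% of all genes. The median was -0.23 for the members, -0.49 for the club cell and -0.74 for the ciliated cell genes. Whether the members differ from these lists was not tested. At E13.5, Spdef differed by 0.07 (SE 0.222, adjusted p = 0.998), and the 7 members other than Spdef, Muc16 and Muc1 had too few reads to be tested. Muc5b had 19 reads over the mutants and 8 over the controls at that stage, a pooled ratio of 2.59 with a counting interval of 1.08 to 6.85 that leaves out the spread between lungs.

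**Figure D4:**
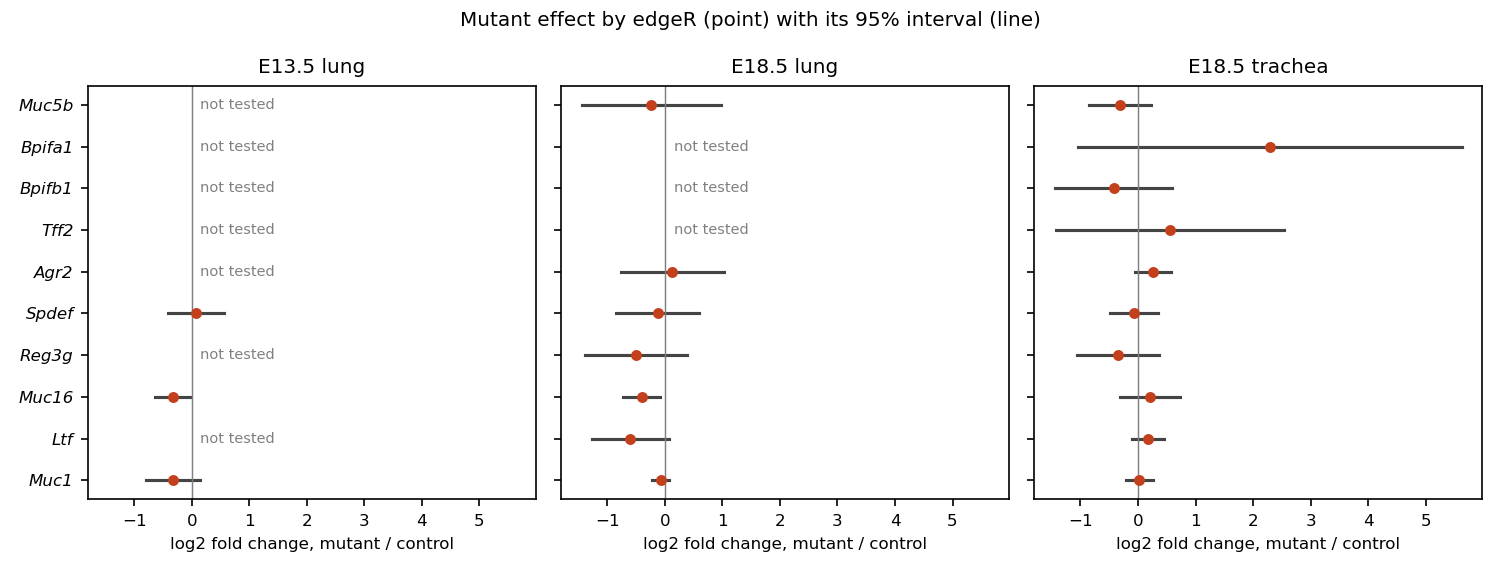
Log2 difference, mutant minus control, of each gene in E13.5 lung, E18.5 lung and E18.5 trachea, with 95% intervals derived from the edgeR F statistic. Genes with too few reads are marked as not tested. No member was called, and the intervals are widest for Bpifa1 and Tff2 in trachea.

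Whether the mutant effect differed between trachea and lung at E18.5 was tested directly with an interaction term over the 20 libraries. None of the 10 members was called, where 0.0252% of all 19859 genes were called, and DESeq2 also called 0. Bpifa1, Tff2 and Bpifb1 had 0, 5 and 29 reads over the control lungs and 1, 4 and 26 over the mutant lungs. Their mutant effect in lung could hardly be estimated, so the lack of a call for them says little. The smallest p-values were those of Ltf, with a difference of effects of 0.82 (SE 0.364, edgeR adjusted p = 0.688), and of Muc16, with 0.65 (SE 0.323, edgeR adjusted p = 0.736). In both the trachea had the more positive mutant difference. Tff2 (1.21, SE 3.71) and Bpifa1 (1.11, SE 11.97) had larger values with far larger errors. Ltf was the only member with an unadjusted p under 0.05, beside 6.92% of all genes.

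Within the trachea the members varied from library to library, and some varied together. Over the 10 libraries, whose totals ran from 11.7 to 30.5 M, Muc5b and Reg3g had a Pearson r of 0.988 (Spearman rho 0.988) on log2(CPM + 0.5). This value was 0.985 without mutant replicate 4, 0.978 without the 2 libraries farthest from the Muc5b median and 0.998 over the 6 mutants alone. The ratio of Muc5b to Reg3g stayed between 1.42 and 1.67 across control tracheas and between 1.45 and 1.96 across mutant ones, while over the 10 libraries Muc5b ranged from 5857 to 14935 CPM and Reg3g from 3056 to 10286 CPM. In the E18.5 lung the ratio spanned 0.551 to 1.01 for controls and 0.635 to 1.98 for mutants, and r was 0.837 over the 10 lungs and 0.614 without mutant replicate 6, which was lowest in both genes.

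Tff2 went with this pair, with r = 0.812 (rho 0.927) for Reg3g and 0.799 (rho 0.915) for Muc5b. Muc16 had r = 0.721 (rho 0.758) with Muc5b, and 0.575 without the 2 farthest libraries. Ltf had negative values with Muc5b (-0.554), Reg3g (-0.557) and Tff2 (-0.742), and those with Muc5b and Tff2 shrank to -0.258 and -0.373 without the 2 libraries farthest from the median of the mucus gene, while that with Reg3g became -0.642. Ltf and Agr2 had r = 0.0907, but 0.626 without mutant replicate 4 and 0.726 without the 2 farthest libraries. Mutant tracheas 2, 3 and 6 were the 3 lowest of the 10 for both Muc5b and Reg3g. On scaled library sizes mutant 4, with the lowest TMM factor, was the highest for both.

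**Figure D5:**
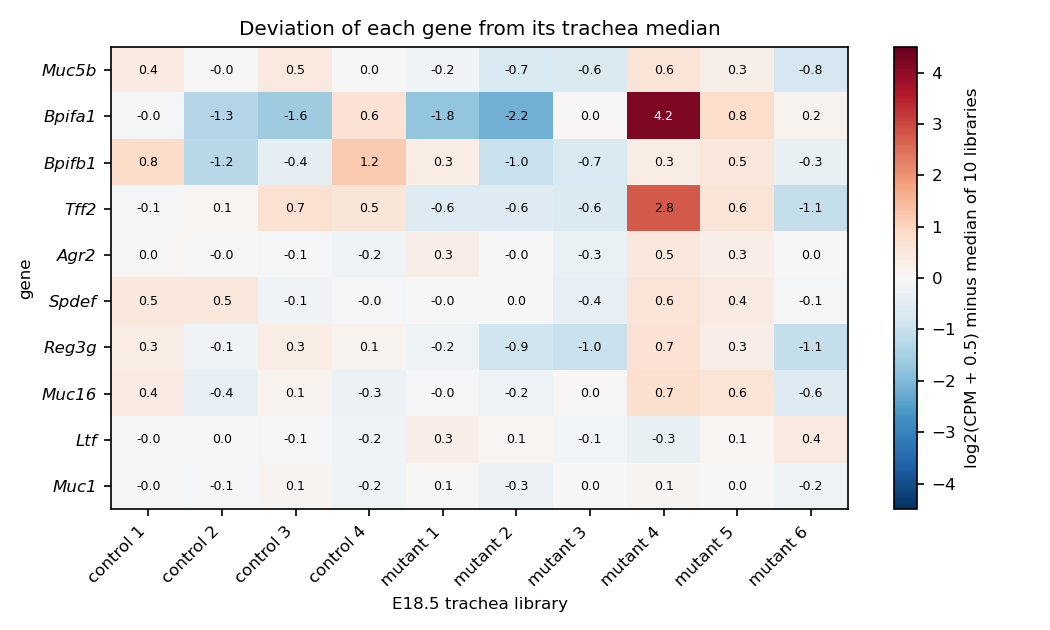
Deviation of each gene from its median over the 10 E18.5 trachea libraries, as log2(CPM + 0.5), shown as colour by gene and library. Mutant replicate 4 is the highest of the 10 for Muc5b, Reg3g, Tff2, Bpifa1, Agr2, Spdef and Muc16. It is also the highest for Muc1, by little (226.8 CPM, next 226.5 CPM in control replicate 3). For Ltf it is the lowest of the 10 (592 CPM). Values are on scaled library sizes, and this library had the lowest TMM factor, 0.814, which raises each of its CPM values.

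The genes most like each member over the same 10 libraries were looked for among 12149 genes with a mean of at least 5 CPM. Of all of these, the gene nearest to Muc5b was Reg3g, and the gene nearest to Reg3g was Muc5b. Next came Tmc5 (0.913) and Golgb1 (0.910) for Muc5b, and Zer1 (0.929) and Tmc5 (0.915) for Reg3g. Tff2 had Sdc4 (0.980), Plekhb1 (0.951) and Scgb3a1 (0.940), a secretoglobin of airway secretory cells, although the last value was 0.791 without mutant 4. Agr2 had Zfp687 (0.944), Spdef had Lman1l (0.891), Muc16 had Cmtm8 (0.947) and Ceacam10 (0.928), and Ltf had Hap1 (0.921). Muc1 had Ampd3 (0.898), Klf5 (0.868) and the gel-forming mucin Muc5ac (0.866). Bpifa1 had Rab40c (0.967) and Bpifb1 had Smkr-ps (0.919). With 10 points and this many candidates, high values are to be found for any gene, and they are given as a description.

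A wider list of 22 mucous pathway genes (other mucins, trefoil peptides, and secretory and glycosylation factors) was read in the same comparisons. In controls 14 of its 17 tested genes were higher in trachea and 2 lower (24.7% and 27.7% of all genes), with a median log2 difference of 4.83. In mutants 16 of 18 were higher and 2 lower (31.2% and 29.2% of all genes). Genes near 0 in a group could pass the filter through the other group alone, so counts and medians of the wider lists between tissues or stages are descriptions. Gp2 was the extreme, at 270 to 410 CPM in control trachea and a mean of 0.0244 CPM in control lung. The mucus-associated protein Fcgbp was higher by 6.12, the glycosyltransferase Galnt12 by 4.83 and the transcription factor Creb3l1 by 2.63, while the chloride transporter Slc12a2 (-0.98) and the protease Ctse (-2.25) were lower. Between the stages 8 of 14 genes were higher and 4 lower in control lungs, where 7100 and 6956 of all 17580 genes were higher and lower. Among the 14 were Muc20 (6.52), Muc4 (2.66), Slc12a2 (1.67) and Xbp1 (0.85) upwards, and Foxa3 (-2.13), Muc6 (-1.53), Muc5ac (-0.95) and Creb3l1 (-0.52) downwards. Mutant against control, 0 of 11, 0 of 14 and 0 of 19 genes were called in E13.5 lung, E18.5 lung and trachea, beside 0.206%, 0.584% and 0.071% of all genes. The most abundant of them in lung, Slc12a2 and Xbp1, had differences of 0.03 and 0.09 at E13.5 and of -0.09 and 0.00 at E18.5, and Creb3l1 had 0.09 in trachea. Gp2 in trachea had 161 ± 62.9 CPM (SD, n = 6) in mutants and 337 ± 59.1 CPM (n = 4) in controls, without overlap (89.5 to 233 against 270 to 410), but its difference of -1.03 (SE 0.256) did not pass the edgeR test (adjusted p = 0.353).

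A list of 35 other secreted defence genes was read in the same way. In controls 8 of 18 tested genes were higher in trachea and 7 lower (24.7% and 27.7% of all genes), with a median of 1.29. In mutants 10 of 19 were higher and 8 lower (31.2% and 29.2% of all genes). Higher in control trachea were Scgb3a1 by 10.05, the antibacterial Pglyrp1 by 5.11, Itln1 by 7.16 and Wfdc2 by 3.06, whereas the lysozymes Lyz1 (-7.42) and Lyz2 (-2.14), the surfactant protein Sftpa1 (-9.16) and complement C3 (-1.52) were lower. Between the stages 12 of 12 tested genes were higher at E18.5 in control lungs, where 40.4% of all genes were higher. Lyz1 was at 15.01, C3 at 8.70, Sftpa1 at 8.45 and Lyz2 at 6.60. In the E18.5 lung 3 of 14 genes fell in mutants by the edgeR test, where 96 of all 17467 genes did. They were C3 by 0.69 on the log2 scale (209 ± 23.5 against 338 ± 42.7 CPM, edgeR adjusted p = 0.00319), Sftpd by 0.41 (166 ± 19.2 against 222 ± 19.6 CPM, adjusted p = 0.0268) and Wfdc2 by 0.32 (115 ± 4.48 against 145 ± 8.5 CPM, adjusted p = 0.0143). At E13.5 0 of 7 genes of the list were called (0.206% of all genes), with Wfdc2 at 0.01 and Lyz2 at 0.09. In trachea 0 of 22 were called (0.071% of all genes), with Scgb3a1 at 0.16 and Wfdc2 at 0.18. None of those 3 is among the 10 genes described here, and a difference between the lists was not tested.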

How the data were processed

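The 30 libraries were sequenced as single reads of 1 lung or trachea each. The deposited tables hold raw read counts per gene; per the file headers the authors counted with featureCounts 1.6.2 on GENCODE vM17, without options that would use strand or add reads that map to several places or genes. Reads were aligned to GRCm38 with STAR (version not given in the sources used here) and the authors tested differences with DESeq2, per the submitters' processing notes and design text. Gene IDs without their version were matched to GENCODE vM21 symbols (53620 of 53715 genes).

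From the counts, each comparison was fitted alone with edgeR 4.0.16 in R 4.3.3: TMM scaling, filterByExpr at a minimum count of 10, a robust quasi-likelihood fit, two-sided tests and Benjamini-Hochberg adjustment over all genes tested, with a threshold of 0.05. SE is the absolute log2 difference divided by the square root of the quasi-likelihood F statistic, and the 95% fold intervals rest on it. For genes near 0 in a group such an SE is rough. CPM uses TMM-scaled library sizes over all 30 libraries, and log values of levels add 0.5 CPM. DESeq2 1.42.0, RLE scaling, no filter, a replicate block and leaving out each library were the alternatives. The code was tested on simulated data.

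The rule for named genes took all 10 members, up to 4 called genes per direction from the pathway lists (the 2 most abundant where none was called) and the 3 nearest genes by Pearson correlation in trachea, of which the text gives 1 to 3; marker genes beyond the 2 most abundant of a list were named after their values were seen. Members and lists were chosen with earlier results of these data known. The labels do not say that libraries are separate litters, so p-values measure the spread between these lungs and tracheas. Same-numbered lungs and tracheas deviated together from their group means, with r of 0.158 to 0.287 in 4 of 4 control pairs. In mutants r was 0.120 to 0.295 in 6 of 6 pairs. The own number was the best match in 4 of 4 control and 5 of 6 mutant pairs. The labels do not say that a pair is 1 embryo, though the titles number the tracheas in the same order of genotype and replicate as the lungs. The r values cannot show it. Same-numbered mutant and control lungs at E18.5, which are different embryos, reached 0.405, with the own number the best match in 3 of 4. The main fits used no pairing, and so treated the lung and trachea of a pair as independent. The replicate block was an alternative.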

Additional observations from a re-analysis of the deposited data

Results flagged for a closer look

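A check for a single library far from the rest of its group was made in 41 groups of 4 to 6 libraries, of which chance alone would mark about 1 in 20, and it marked 5. In trachea mutant replicate 4, Bpifa1 had 357 CPM where the other 5 mutants had 3.87 to 33.5 CPM, and Tff2 had 395 CPM where they had 27.3 to 86.1 CPM. On scaled library sizes this library was also the highest of the 10 tracheas for Muc5b, Reg3g, Agr2, Spdef, Muc16 and Muc1, though not marked for them. Its low TMM factor raises each of its CPM values, and the part of the factor in these rankings was not tested. The same library had 22576 CPM of Scgb3a1 (7977 to 12950.5 in the others), 1709 CPM of Pglyrp1 (631 to 929) and 2313 CPM of Wfdc2 (892 to 1361). Its 10 club cell genes summed to 43229.5 CPM (27146 to 34734 in the other mutants), its 7 thyroid genes to 538 CPM (19.8 to 367 in the other mutants, but 636 CPM in control replicate 1, which had 18.6 CPM of Bpifa1 and 53.9 CPM of Tff2), and it had the lowest TMM factor, 0.814; the part of any of these in the 2 values was not tested.

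Muc5b in E18.5 lung mutant replicate 4 had 7.98 CPM where the other mutants had 0.418 to 2.57 CPM, and Reg3g in lung mutant replicate 6 had 0.353 CPM where the others had 2.71 to 4.04 CPM. Scgb3a1, the airway secretoglobin, was highest of the mutant lungs in replicate 4 (11.4 CPM) and lowest in replicate 6 (1.54 CPM). Ltf in E13.5 lung mutant replicate 4 had 4.06 CPM where the other 4 mutants had 0 to 0.0823 CPM. That library also had the most S100a9 (12.9 CPM), S100a8 (9.98 CPM), Ngp (5.81 CPM) and Camp (3.31 CPM) of the group, and its 13 neutrophil granule genes other than Ltf summed to 38.3 CPM.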

How the results depend on the processing

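The counts of members called were within 1.5 times the reported ones in all 122 alternatives, with a range of 9 to 10 for the tissue comparison in mutants, 5 to 6 for the stage comparison in mutants and no change in the other 6. Of 988 alternative values of single members, 952 kept direction and call, 6 lost the call (all of Ltf between the stages in mutants: 2.70 with DESeq2, 2.59 without a filter, and 2.26 to 2.32 on leaving out E13.5 mutant replicate 1, 2, 3 or 5) and 30 changed sign without being called on either side. With the replicate block the mutant difference of Tff2 in trachea was -0.11 and the difference of effects of Muc5b was 0.14; the block changed no call. Outside the tissue comparisons not every pair of same-numbered libraries had r over 0.1, and no pairing was read from r there either. Between mutants and controls it was over 0.1 in 0 of 5 pairs at E13.5, 3 of 4 in E18.5 lung and 2 of 4 in trachea. In E18.5 lung it reached 0.405, with the own number the best match in 3 of 4. Between the stages it was over 0.1 in 3 of 4 control and 1 of 5 mutant pairs. The ranges that follow are over all alternatives together. The mutant difference ranged from -0.025 to 0.21 for Spdef at E13.5 and from -0.090 to 0.32 for Agr2 in E18.5 lung. In trachea it ranged from -0.73 to 0.0021 for Bpifb1, from -0.67 to 0.76 for Tff2, from -0.20 to 0.049 for Spdef and from -0.037 to 0.065 for Muc1. The difference of effects ranged from -0.28 to 0.56 for Muc5b, from -1.08 to 2.29 for Bpifa1, from -0.29 to 0.72 for Bpifb1, from -0.28 to 2.48 for Tff2, from -0.0095 to 0.24 for Spdef and from -0.078 to 0.33 for Reg3g; the cause was not tested. Over all genes the called number ranged from 0 to 79 at E13.5 (34 as reported, 79 with DESeq2), from 26 to 262 in E18.5 lung (102; 262) and from 3 to 99 in trachea (13; 99), from 2 to 65 for the difference of effects (5; 65). DESeq2 gave no adjusted p for Bpifa1 in trachea against lung in mutants or for Bpifa1 and Tff2 in mutant against control trachea, and 5 runs that left out a lung gave no stage value for Reg3g in mutants, since it no longer passed the filter. Depth limited the lung values of Tff2, Bpifa1 and Bpifb1, where 0 to 50 reads were counted per group.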
